A study of Citrus sinensis with 2 samples.

Results

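MiR166, miR165 and miR394 are plant microRNAs (miRNAs) known for their part in leaf polarity and in the shoot meristem. They were taken by name from the deposited read-count table, in which all 3 are present among 1215 known miRNA names. Small RNA was sequenced from 2 libraries of fully expanded leaves of *Citrus sinensis* seedlings of the cultivar Xuegan. The Mg-deficient library came from seedlings given 0 mM MgSO4 for 16 weeks, and the Mg-sufficient library from seedlings given 1 mM MgSO4 for the same time. Leaves of 5 plants were mixed for each library. With 1 library per treatment, no difference could be set against a spread between replicates, and every test below compares the reads of these libraries and not the treatments.

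In flowering plants, miR165 and miR166 guide the cleavage of transcripts of class III homeodomain-leucine zipper (HD-ZIP III) transcription factors, among them PHABULOSA, PHAVOLUTA and REVOLUTA of Arabidopsis. They keep these factors to the upper (adaxial) side of the leaf and out of its lower (abaxial) side. The same factors act in the shoot meristem and in the vascular tissue, and in Arabidopsis the protein ARGONAUTE10 binds miR165 and miR166 and keeps them from acting in the meristem. MiR394 is known in Arabidopsis to move from the outermost cell layer into the meristem, where it represses the F-box protein LEAF CURLING RESPONSIVENESS and maintains stem cells. The leaves sequenced here were past the stage at which polarity is laid down, and no transcripts were measured in these libraries.

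The sequences the study lists for miR166 and miR165 are shown because these names differ by 1 base. Capitals mark the seed (bases 2 to 8 from the 5′ end, the part of a miRNA that pairs first with its target) and the base at which they differ.
miR166: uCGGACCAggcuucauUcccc
miR165: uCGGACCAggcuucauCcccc
Both are 21 nt long and share the seed CGGACCA. With positions counted from 1 at the 5′ end, they differ only by U17C, the base of miR166 given first. Among the 690 names with a listed sequence, miR165 was the only name that shared the seed of miR166, and miR166 the only one that shared that of miR165. Over a stretch of 17 nt or more, no other listed sequence matched either of them with 5 or fewer mismatches. The authors allowed up to 2 mismatches when reads were matched to miRNA names, which is more than the difference between these names. How a read that matches both names was counted is not given in the sources used here, so the division of reads between miR165 and miR166 is uncertain. Whether reads counted as miR165 were miR166 reads with 1 base misread could not be tested from counts per name. No sequence is listed for miR394, and none is shown.

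The RefSeq gene table of *C. sinensis* (assembly DVS_A1.0, used for gene names and neighbours only) holds 129 miRNA genes in 47 families by name. MiR166 has 7 genes there, on 3 chromosomes, namely MIR166A, MIR166C, MIR166E, MIR166G, MIR166H, MIR166J and MIR166K, and 3 families have more. MIR166J and MIR166K lie next to each other with 0 annotated genes between them, and 4 genes separate MIR166K from MIR166H. MiR394 has 2 genes, MIR394A and MIR394B, on 1 chromosome. No gene in the table is named for miR165. The deposited counts are given per miRNA name and not per gene, so the reads of miR166 could not be assigned to any of its 7 genes.

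The Mg-deficient library held 20328011 clean reads and the Mg-sufficient library 22218850, as the deposited tables label them. The study's text gives these totals under the opposite treatments. The directions below follow the labels of the deposited columns, whose RPM values equal the counts divided by these totals. If the library labels were exchanged as a whole, every log2 ratio below would take the opposite sign. Known miRNAs had 3003648 counts in the Mg-deficient library, or 14.8% of its clean reads, against 5097686 counts and 22.9% in the Mg-sufficient library. The tissue could not be checked against marker transcripts, since the tables hold miRNAs only.

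All 3 miRNAs had lower normalized read-counts in the Mg-deficient library, miR166 and miR165 by more than the counting error and miR394 within it. MiR166 was the third in abundance of all names, miR165 was 618 times rarer in the Mg-deficient and 555 times rarer in the Mg-sufficient library, and miR394 had only 30 counts in all. These orders are rough, since sequences differ in how well they are ligated and amplified. None of the 3 met the rule of the study's methods for a difference. When miR166 was expressed as a share of the known miRNA counts instead of the clean reads, it was nearly the same in both libraries. Normalized read-counts are given as counts per 1000000 clean reads (RPM), with 95% Wilson intervals. Each log2 ratio is of Mg-deficient over Mg-sufficient. For a single name, its interval is from the exact Clopper-Pearson interval of the split of its counts. Ratios between names have other intervals, named where they are given. All intervals cover counting error only, and PCR copies of 1 molecule are counted as separate reads.

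MiR166 was read 309678 times in the Mg-deficient and 524493 times in the Mg-sufficient library. Its normalized read-count was 15234 RPM (15181 to 15287) in Mg-deficient and 23606 RPM (23543 to 23669) in Mg-sufficient leaves, or 1.52% and 2.36% of the clean reads. The log2 ratio was -0.63 (-0.638 to -0.625), and miR166 was 1.55-fold lower in the Mg-deficient library, a difference larger than the counting error. MiR166 was at place 3 of the 1215 names in each library. The name above it was miR167, known for its AUXIN RESPONSE FACTOR targets, and the name below it was miR156, which represses SPL transcription factors and marks the juvenile phase.

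For miR165, 501 counts were found in Mg-deficient leaves and 945 in Mg-sufficient leaves. This was 24.6 RPM (22.6 to 26.9) in Mg-deficient against 42.5 RPM (39.9 to 45.3) in Mg-sufficient leaves, and the intervals did not overlap. The log2 ratio was -0.79 (-0.95 to -0.63), or 1.73-fold lower, and the Audic-Claverie exact test of these libraries (one-sided) gave p = 3.05e-24. In order of abundance, miR165 was at place 165 in the Mg-deficient and at place 107 in the Mg-sufficient library. By mean normalized read-count it stood between miR7730, which was read 1366 times in Mg-deficient leaves and 0 times in Mg-sufficient leaves, and miR1168, with 1338 and 19 counts in the Mg-deficient and the Mg-sufficient library.

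Only 11 reads of miR394 were found in Mg-deficient leaves and 19 in Mg-sufficient leaves. Its normalized read-count was 0.541 RPM (0.302 to 0.969) in Mg-deficient against 0.855 RPM (0.547 to 1.34) in Mg-sufficient leaves, and these intervals overlapped. The log2 ratio was -0.66, with an interval from -1.88 to 0.48 that includes no difference, and the Audic-Claverie exact test gave a one-sided p of 0.116. MiR394 was below the abundance filter of 10 RPM in both libraries, and below the 1 RPM in at least 1 library that the names in the authors' comparison table all have. With its 30 counts in all, a split of 8 counts in the Mg-deficient to 22 in the Mg-sufficient library, a log2 ratio of -1.33, would have been needed for an interval below 0. A smaller difference in miR394 was not detectable at this depth. Its neighbours in order of mean normalized read-count were miR5665, with 4 counts in the Mg-deficient and 27 in the Mg-sufficient library, and miR5214, with 0 and 31.

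**Figure D1:**
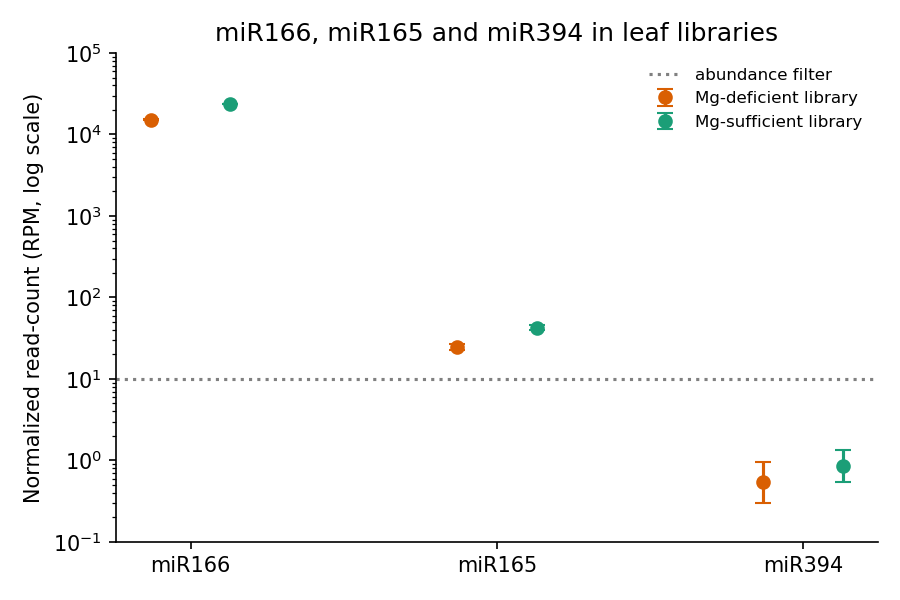
Normalized read-count (RPM, log axis) of miR166, miR165 and miR394 in the Mg-deficient (left of each pair) and the Mg-sufficient library (right). Points are the values of 1 library each, bars are 95% Wilson intervals, and the dotted line is the filter of 10 RPM. MiR166 lies at 15234 and 23606 RPM, miR165 at 24.6 and 42.5 RPM, and the intervals of miR394, at 0.541 and 0.855 RPM, overlap.

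The study's rule for a difference asks for at least 10 RPM in at least 1 library, a p-value below 0.01 and a log2 ratio beyond 1.5. MiR166 and miR165 passed the filter and the p-value but fell short of the ratio, and miR394 did not pass the filter, so that 0 of the 3 were called. Of the 324 names that passed the filter, 174 were called, or 53.7%, 91 of them (28.1%) as higher and 83 (25.6%) as lower in Mg-deficient leaves. The filter also lets in names with at least 10 RPM in only 1 library. Of the 149 names with at least 10 RPM in both libraries, as miR166 and miR165 had, 19 were called (12.8%), 11 as higher and 8 as lower. If the threshold is read as a linear ratio of 1.5, miR166 and miR165 were both called lower, as were 39.8% of the 324 names. By that reading 34.0% of the names were called higher, 73.8% in all. The median log2 ratio of the 324 names was -0.30, and 122 of them had a lower ratio than miR166 and 113 a lower ratio than miR165. Among the 149 names with at least 10 RPM in both libraries, the middle part (between the quartiles) ran from -0.63 to 0.10, so that the ratio of miR166 stood at the lower quartile and 38 names lay below it.

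**Figure D2:**
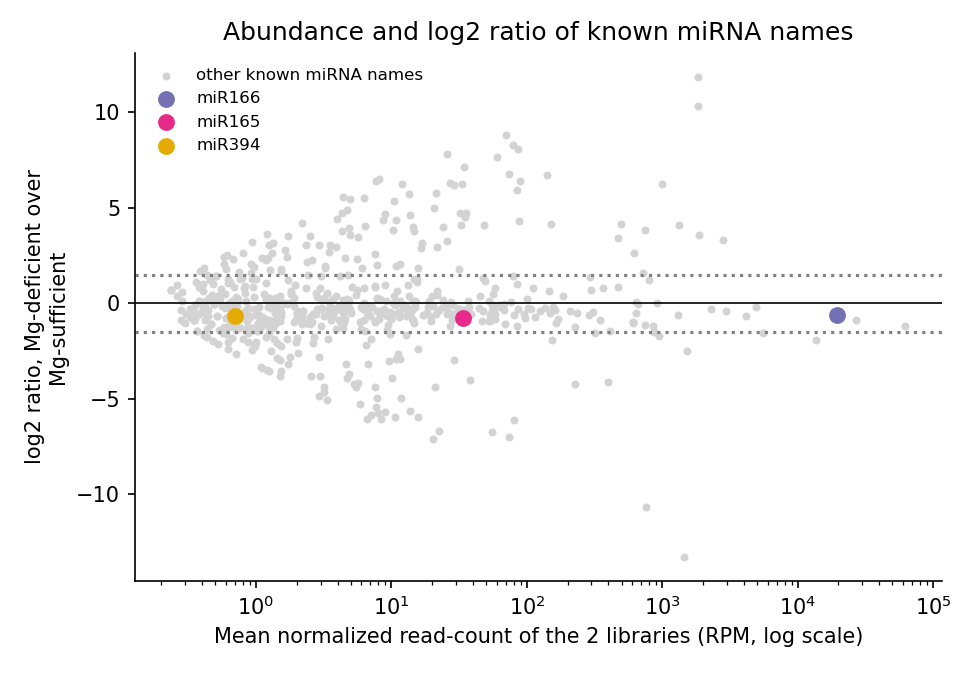
Log2 ratio (Mg-deficient over Mg-sufficient library) against mean normalized read-count (RPM, log axis) for the 621 names with more than 3 counts in both libraries, with miR166, miR165 and miR394 in colour and the other names in grey. Dotted lines mark log2 ratios of 1.5 and -1.5. The 3 coloured points lie between -0.79 and -0.63, inside both lines, at very different abundance.

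The ratio of miR166 depended on what it was counted against. As a share of all counts of known miRNAs it made up 10.3% in both libraries, 10.31% (10.28 to 10.34) in the Mg-deficient and 10.29% (10.26 to 10.32) in the Mg-sufficient library. The log2 ratio of these shares was 0.003, with an interval from -0.003 to 0.009. Its lower count per clean read was thus equal, within the counting error, to that of the known miRNAs as a whole. Clean reads also hold rRNA fragments. By the study's read classes, their share was larger in the library of 20328011 clean reads, deposited as Mg-deficient. How far this moved the ratios per clean read was not tested. In a leaf extract, fewer cells that hold a miRNA and less of it per cell cannot be told apart. A level share was not particular to miR166, since miR5770 took 2.20% in each library. Among the 10 names of highest mean RPM, named here after their values were seen, 4 took a smaller and 4 a larger share in the Mg-deficient library. MiR157, the most abundant name, took 25.7% in the Mg-deficient against 38.0% in the Mg-sufficient library. MiR167 took 12.8% in the Mg-deficient against 15.3% in the Mg-sufficient library, and miR156 3.84% against 9.33%. MiR2199 took 3.47% in the Mg-deficient against 0.226% in the Mg-sufficient library, and miR3954 3.08% against 2.28%. MiR165 took 0.0167% (0.0153 to 0.0182) in the Mg-deficient and 0.0185% (0.0174 to 0.0198) in the Mg-sufficient library, and these intervals overlapped.

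**Figure D3:**
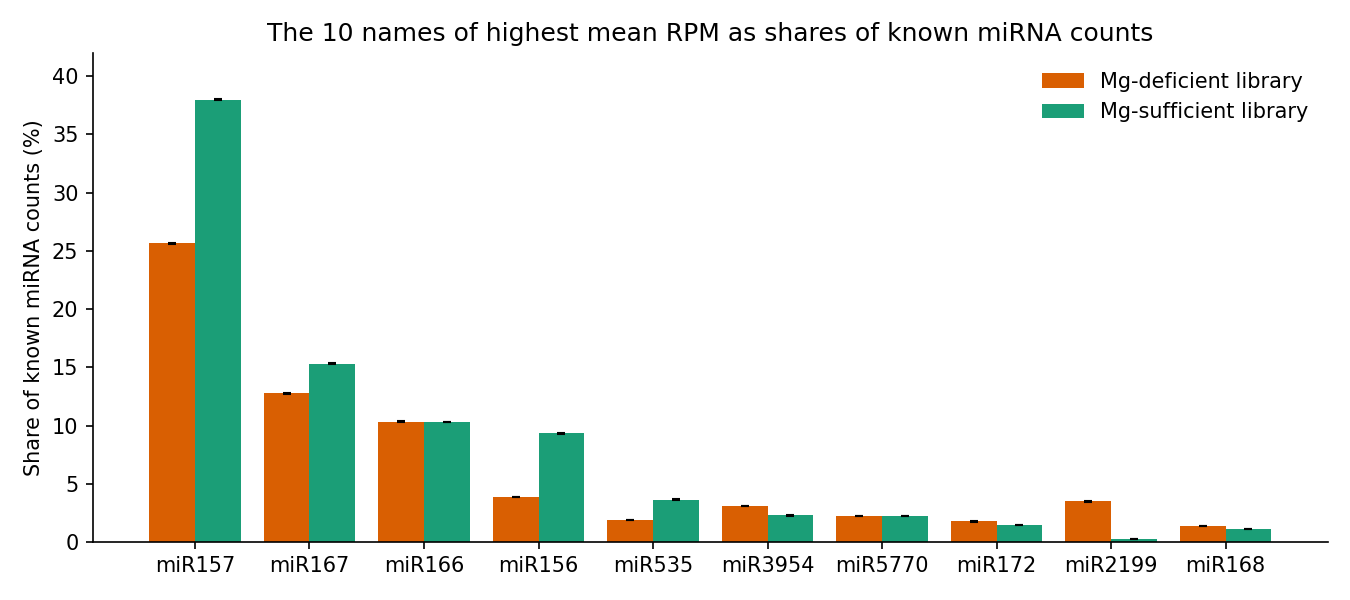
Share of all known miRNA counts (%) taken by each of the 10 names of highest mean RPM over the libraries, in the Mg-deficient (left bar) and the Mg-sufficient library (right bar), with 95% Wilson intervals. The bars of miR166 (10.3%) and miR5770 (2.20%) are level, those of miR157, miR167, miR156 and miR535 are lower in the Mg-deficient library, and those of miR3954, miR172, miR2199 and miR168 are higher there.

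With edgeR's TMM normalization, which scales the libraries on the names of middling ratio, all log2 ratios moved up by 0.34, and with DESeq2's size factors by 0.37. The log2 ratio of miR166 was then -0.29 with TMM and -0.26 with DESeq2, and that of miR165 was -0.45 and -0.42. MiR394 had -0.32 and -0.29, with intervals that included 0 under each scaling. When the clean-read totals alone were exchanged and the counts kept, miR166 was at -0.89, miR165 at -1.04 and miR394 at -0.92. None of these scalings brought any of the 3 past a log2 ratio of 1.5.

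**Figure D4:**
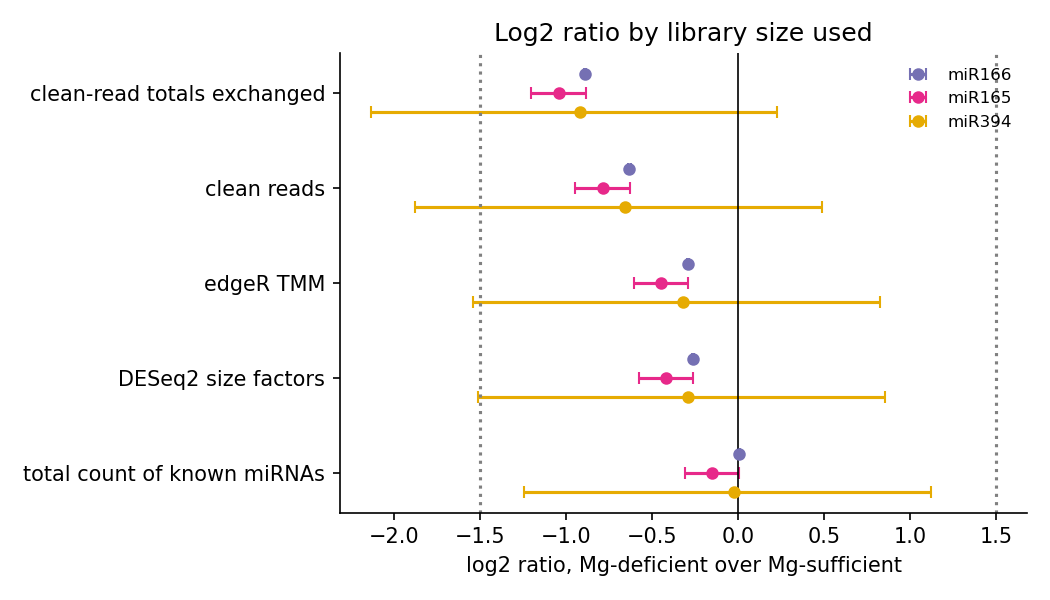
Log2 ratio (Mg-deficient over Mg-sufficient library) of miR166, miR165 and miR394 under each library size used, with 95% Clopper-Pearson intervals of the counts. Dotted lines mark 1.5 and -1.5. The points of miR166 run from -0.89 with the totals exchanged to 0.003 when scaled to known miRNA counts, and the intervals of miR394 span 0 in every case.

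The 3 miRNAs were next compared with each other, which needs no library size. All 3 pairs were tested with Fisher's exact test (two-sided), and p-values were adjusted over them by Benjamini-Hochberg. The log2 ratio of each pair and its interval are from the exact conditional odds ratio of the counts. For each 1000 reads of miR166 there were 1.62 reads of miR165 (1.48 to 1.77) in the Mg-deficient library and 1.80 (1.69 to 1.92) in the Mg-sufficient library. The log2 ratio of these values was -0.16 (-0.31 to 0.003), with p = 0.0531 by Fisher's exact test and 0.159 after adjustment, so that no difference between the libraries was shown. Reads of miR394 numbered 0.0355 per 1000 of miR166 in the Mg-deficient and 0.0362 in the Mg-sufficient library. The log2 ratio was -0.03, and its interval, from -1.25 to 1.12, leaves room for large differences in either direction. Against miR165, miR394 had a log2 ratio of 0.13 (-1.10 to 1.28). Summed over miR165 and miR166, as if every read could belong to either name, there were 310179 counts in the Mg-deficient and 525438 in the Mg-sufficient library, a log2 ratio of -0.63. MiR166 alone held 99.8% of the counts of the 3 names in both libraries.

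The ratio of miR166 was then set beside those of 13 names known from model plants to act in leaf development, polarity or the meristem. Of these, 11 passed the filter, and 10 of the 11 had a lower normalized read-count in the Mg-deficient library. Most other names were lower too, with 191 lower and 133 higher of all 324. Of the 149 names with at least 10 RPM in both libraries, 103 were lower and 46 higher. The median log2 ratio of the 11 was -0.78, against -0.30 for all 324 names. Scaled to known miRNA counts, 6 of the 11 were lower and 5 higher, and with TMM or DESeq2 9 were lower and 2 higher. Called were 2, both lower, and 0 were called higher, where 25.6% and 28.1% of all names that passed were called. With at least 10 RPM in both libraries, 2 of 11 were called (18.2%), both lower. Of all 149 such names, 19 were called (12.8%), 11 higher and 8 lower. The called names of the developmental list were miR164, which represses CUP-SHAPED COTYLEDON genes at organ boundaries (log2 ratio -2.51), and miR156 (-1.92). MiR319, which represses TCP genes of leaf growth, and miR170 did not pass the filter. MiR319 had 31 counts in the Mg-deficient and 9 in the Mg-sufficient library, and miR170 had 3 and 0.

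MiR390 is the nearest of these to miR165 and miR166 in function, since it starts the TAS3 small RNAs that repress ARF3 and ARF4, genes of the lower leaf side in Arabidopsis. It had 1453 counts (71.5 RPM) in the Mg-deficient and 2734 counts (123 RPM) in the Mg-sufficient library. Its log2 ratio of -0.78 (-0.88 to -0.69) was the closest to that of miR165 among the 148 other names with at least 10 RPM in both libraries. It was followed by miR8122 (-0.80) and miR7760 (-0.80). The interval of miR165 (-0.95 to -0.63) holds each of these ratios, so this order is uncertain. MiR168, which represses ARGONAUTE1, the protein that most plant miRNAs act through, had 2048 RPM in the Mg-deficient and 2520 RPM in the Mg-sufficient library, a log2 ratio of -0.30.

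Counted per read of each of these names, miR166 was relatively higher in the Mg-deficient library than 6 of the 12 with more than 3 counts in both libraries, and relatively lower than the other 6, by more than counting error in each case. The intervals of these ratios are normal approximations on the log scale. There were 2.68 reads of miR166 per read of miR156 in the Mg-deficient library against 1.10 in the Mg-sufficient library, a log2 ratio of 1.28 (1.27 to 1.30). Per read of miR164 there were 33.5 in the Mg-deficient against 9.15 in the Mg-sufficient library (log2 ratio 1.87). Smaller log2 ratios above 0 were found against miR171, a regulator of HAIRY MERISTEM genes (0.83), miR157 (0.57), miR167 (0.26) and miR390 (0.15, with an interval from 0.06 to 0.24). Against miR160, which represses further AUXIN RESPONSE FACTOR genes, miR166 was relatively lower. It had 32.7 reads per read of miR160 in the Mg-deficient against 89.2 in the Mg-sufficient library, a log2 ratio of -1.45. The log2 ratio of miR166 was also below 0 against miR168 (-0.33), the APETALA2 regulator miR172 (-0.26), the MYB regulator miR159 (-0.22), the GROWTH-REGULATING FACTOR regulator miR396 (-0.15) and miR319 (-2.54, from the few counts given above).

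**Figure D5:**
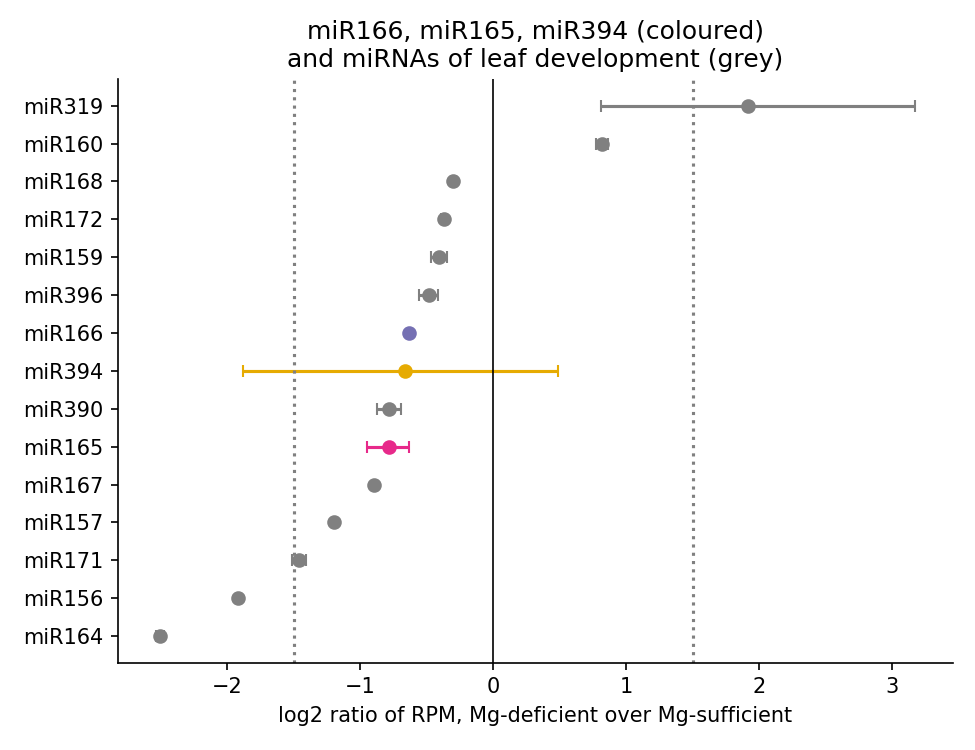
Log2 ratio of RPM (Mg-deficient over Mg-sufficient library) of miR166, miR165 and miR394 (coloured) and of the 12 developmental names with more than 3 counts in both libraries (grey), with 95% Clopper-Pearson intervals. Dotted lines mark 1.5 and -1.5. Among the grey points, those next to miR166 (-0.63) are miR396 at -0.49 and miR390 at -0.78, and miR160 and miR319 are the names above 0 when scaled to clean reads.

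Among the 17 other names with a mean of at least 1000 RPM, the closest log2 ratios to that of miR166 were those of miR5770 (-0.64), miR5254 (-0.61) and miR172 (-0.37). MiR5770 had 66174 counts in the Mg-deficient and 112329 in the Mg-sufficient library, and miR5254 had 21140 and 35150. For miR394, the closest among the 149 names with at least 10 RPM in both libraries were miR5770, miR5631 (-0.63) and miR166 itself, and its wide interval makes this order uncertain.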

How the data were processed

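Clean small RNA reads were mapped by the authors to the *C. sinensis* genome with SOAP, freed of rRNA, tRNA, snRNA and snoRNA, and compared with miRBase plant miRNAs, up to 2 mismatches being allowed. The authors deposited the read count of 1215 names per library, without normalization, and the same values per 1000000 clean reads (RPM). RPM recomputed here equalled the deposited RPM within 0.0001 for all 1215 names. The comparison table deposited by the authors also holds log2 ratios and p-values for 728 names, which were not used. Its clean-read totals were used as library sizes.

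The study's one-sided Audic-Claverie exact test was computed over all names, a count of 0 being set to 0.01 RPM. A name was called with p below 0.01, a log2 ratio beyond 1.5 and at least 10 RPM in at least 1 library. edgeR's quasi-likelihood test needs replicates and was not run. Alternatives were other library sizes (edgeR 4.0.16 TMM, DESeq2 1.42.0 size factors, known miRNA total with and without the 3 miRNAs, exchanged totals), an added count, Fisher's exact test, other filters and thresholds. The names described besides the 3 are the developmental list, neighbours in abundance, names of like sequence and the 3 names of closest log2 ratio. The 3 miRNAs, lists and rules were chosen with earlier results of these data known. Sequences came from the study's list of known miRNAs. Python 3.11.15, scipy 1.17.1, pandas 2.3.3 and R 4.3.3 were used.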

Additional observations from a re-analysis of the deposited data

How the results depend on the processing

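The log2 ratio of miR166 was no longer below 0 when known miRNA counts replaced clean reads as the library size. It was 0.00297 with all known miRNAs and 0.00328 with the 3 miRNAs left out of the total. That of miR165 and miR166 summed was 0.00271 with all known miRNAs. Each of these intervals included 0, so no opposite direction was shown. With a linear ratio of 1.5 as the threshold, miR166 (-0.63) and miR165 (-0.79) were called lower. In all other alternatives the log2 ratios of the 3 miRNAs stayed below 0 and none was called. That of miR165 scaled to known miRNA counts was -0.15, with an interval from -0.31 to 0.005 that included 0. The number of known miRNAs called was 534 of 1215 (44.0%) without an abundance filter and 19 of 149 (12.8%) with 10 RPM in both libraries, against 174 of 324 (53.7%). Of the 11 developmental names that passed, 1 was called when scaled to known miRNA counts, 7 with a linear ratio of 1.5 and 4 with a log2 ratio of 1, against 2. Of the 20 conserved names that passed, which include these 11, the numbers were 3, 15 and 8, against 5. Over all names that passed, 54.9%, 73.8% and 60.5% were called in these settings, against 53.7%. Scaling moved the split of calls: it was 114 higher and 65 lower when scaled to known miRNA counts, 104 higher and 71 lower with TMM and with DESeq2, and 89 higher and 92 lower with the totals exchanged, against 91 and 83. No paired analysis was possible because each treatment has 1 library. Of the 3, depth limited miR394, and the allotment of reads between miR165 and miR166 could not be varied beyond summing them.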

Other observations

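A list of 24 names of families found across flowering plants was also looked at, with miR165, miR166 and miR394 left out. It includes all 13 developmental names, so it is not a separate set. Of the 24, 20 passed the abundance filter, 15 with a lower and 5 with a higher normalized read-count in the Mg-deficient library. The 11 developmental names among the 20 gave 10 of the lower and 1 of the higher. The median log2 ratio of the 20 was -0.70, against -0.30 for all 324 names, of which 191 were lower and 133 higher. Scaled to known miRNA counts, 10 of the 20 were lower and 10 higher. Called higher were miR395, of sulfate assimilation (log2 ratio 10.30), and miR398, of copper proteins (1.59), and called lower were miR156, miR164 and miR535. These are 2 higher and 3 lower of 20, where 28.1% of all 324 names that passed were called higher and 25.6% lower. With at least 10 RPM in both libraries, 4 of 19 were called (21.1%), 1 higher and 3 lower. Of all 149 names at that filter, 19 were called (12.8%), 11 higher and 8 lower. MiR393, which represses auxin receptors, had 847 counts in the Mg-deficient and 1429 in the Mg-sufficient library, a log2 ratio of -0.63 (-0.75 to -0.50). Its part of all counts of known miRNAs was 0.0282% in the Mg-deficient and 0.0280% in the Mg-sufficient library.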
